A study of Drosophila melanogaster with 2 samples.

Results

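The ecdysone-response nuclear receptor genes are 9 Drosophila melanogaster genes, EcR, usp, Hr3, Hr4, Hr38, Hr39, Eip75B, Eip78C and ftz-f1, out of 13968 protein-coding genes on the chromosome arms. They were taken by name from the Ensembl annotation of dm6, and a castor peak was counted at a gene when its summit lay in the gene body or within 2 kb of it. Of the 9 genes, 4 (usp, Hr3, Hr4 and Eip75B) had a peak in the conservative list, which combines both replicates, and EcR was added by the other combined list, called pooled here. By the same rule 20.1% of all protein-coding genes and 33.7% of those of at least 10 kb had a conservative peak, and 8 of the 9 members are of that length. Hr38, Hr39, Eip78C and ftz-f1 had no peak in any of the 4 lists. Most genes had no peak in any single list: the largest shares with one, in the pooled list, were 22.8% of all protein-coding genes and 37.7% of long ones. The share of genes with no peak in all 4 lists was not counted, so this absence cannot set these members apart. The strongest peak, at Hr3, had a signal of 208, and the largest number of conservative peaks, 4, was at Hr4.

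Castor (cas) is a zinc-finger transcription factor that embryonic neuroblasts express late in their temporal series. Its binding was measured by chromatin immunoprecipitation and sequencing in whole embryos aged 0 to 24 hours of the strain cas-GFP, a transgenic line in which castor is fused to green fluorescent protein. An antibody to green fluorescent protein was used on chromatin sonicated to 200 to 800 bp, and the 2 biological replicates form the only group, so no comparison between groups was possible and no test was made. The labels do not say whether untagged castor was also present or which sequences drive the fusion. Whole embryos were used, so a weak peak in many cells and a strong one in few cannot be told apart.

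Ecdysone, the insect steroid hormone, acts through a heterodimer of the receptors EcR and usp. The liganded heterodimer switches on early genes such as Eip75B, whose products pass the signal to further receptors, among them Hr3, Hr4, Hr39 and Eip78C, and Hr3 in turn activates ftz-f1, which makes tissues competent for the next pulse. Hr38 binds usp in place of EcR. In embryos a pulse of the hormone accompanies germ band retraction and the later movements of morphogenesis, and most of this order of events is known from the onset of metamorphosis.

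The sequences around the summits of the conservative peaks at usp, Hr4 and Eip75B are shown because these peaks carry the account of those genes and each rests on an entry of both replicates. The 2 conservative peaks at Hr3 also rest on entries of both replicates but are not shown, and the weaker of them holds AAAAAA. Each sequence printed holds the summit base and 50 bases on either side of it, read 5′ to 3′ on the plus strand of dm6 from the RefSeq Release 6 genome. Capitals mark a match to GAGAG or AAAAAA on either strand.
usp promoter peak, chrX:2041404-2041504: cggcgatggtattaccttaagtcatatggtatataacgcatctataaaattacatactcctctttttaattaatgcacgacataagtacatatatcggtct
Hr4 peak upstream of the gene, chrX:1940188-1940288: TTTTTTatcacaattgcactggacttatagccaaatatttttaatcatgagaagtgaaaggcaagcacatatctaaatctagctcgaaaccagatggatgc
Hr4 intron peak nearest the start, chrX:1947695-1947795: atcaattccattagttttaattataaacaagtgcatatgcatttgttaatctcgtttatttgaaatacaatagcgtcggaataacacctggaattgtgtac
Hr4 strongest intron peak, chrX:1951894-1951994: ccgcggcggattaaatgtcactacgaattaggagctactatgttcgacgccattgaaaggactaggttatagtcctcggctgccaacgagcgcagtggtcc
Hr4 intron peak farthest from the start, chrX:1963838-1963938: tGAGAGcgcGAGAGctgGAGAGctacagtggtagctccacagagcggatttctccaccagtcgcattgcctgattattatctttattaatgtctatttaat
Eip75B coding exon peak, chr3L:17959549-17959649: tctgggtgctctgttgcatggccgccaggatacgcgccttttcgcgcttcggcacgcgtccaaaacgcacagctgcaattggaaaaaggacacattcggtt
Eip75B intron peak, chr3L:18019691-18019791: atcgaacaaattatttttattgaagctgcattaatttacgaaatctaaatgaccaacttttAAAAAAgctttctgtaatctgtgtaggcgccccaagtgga

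The next 3 windows lie at alternative starts of Eip75B where a peak was called in some lists and not in the conservative one, and they are shown because the replicates differed there by more than 1 on the log2 scale. Strand, build and capitals are as above.
Eip75B-RD start, chr3L:17961731-17961831: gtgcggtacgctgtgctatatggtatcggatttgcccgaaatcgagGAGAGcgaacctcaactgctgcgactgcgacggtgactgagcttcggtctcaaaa
Eip75B-RA start, chr3L:17971142-17971242: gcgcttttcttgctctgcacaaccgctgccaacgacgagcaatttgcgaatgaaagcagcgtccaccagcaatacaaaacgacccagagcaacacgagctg
Eip75B-RC start, chr3L:17999801-17999901: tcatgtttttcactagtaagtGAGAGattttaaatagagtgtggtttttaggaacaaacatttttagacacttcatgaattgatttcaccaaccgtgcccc

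Across the 4 lists the members had 16 sites with a peak, and 6 patterns were searched on both strands in the same windows, the summit and 50 bases on either side. TATCGA and CGATAG, overlapping pieces of the DNA replication-related element found at many housekeeping promoters, were at 0 of the 9 conservative sites and 0 of all 16. Among all 1879 conservative summits on the arms TATCGA was at 9.53% and CGATAG at 6.97%, against 3.73% and 2.24% of all windows of this length on the arms. AGGTCA, the hexamer recognised by nuclear receptors, was at 0 of the 16 sites, at 1.92% of all conservative summits and in 2.73% of arm windows. An exact inverted repeat of AGGTCA with 1 base between the copies, a form bound by the EcR and usp heterodimer, was at 0 of the 16 sites and 0 of the 1879 summits. Only 2 of 1356741 arm windows held this exact repeat. Its count of 0 was therefore nearly certain beforehand and cannot show whether the sites hold other forms. With 9 and 16 sites, these counts cannot set the members apart from other peaks.

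GAGAG, the word recognised by GAGA factor, was at 1 of the 9 conservative sites, the Hr4 intron peak farthest from the start, which held 3 copies near the left end of the window printed above. It was at 4 of all 16 sites, against 10.4% of all conservative summits and 11.5% of arm windows. The other 3 were at Eip75B, where the starts of the RD and RC transcripts had 1 copy each and the peak just past the 3′ end of the gene had 3. AAAAAA, a run like those that hunchback, an earlier factor of the neuroblast series, is known to bind, was at 3 of the 9 conservative sites, against 26.1% of all conservative summits and 18.0% of arm windows. The base composition varied among the members, within the wider range of all peaks. The median GC content was 34.7% over the 9 conservative sites, with a range of 23.8% to 56.4%. Over all conservative summits it was 32.7%, with a range of 11.9% to 71.3%.

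The signal is the authors' own height of a peak and is not scaled between lists, so values of a combined list and of a single replicate cannot be set against each other. The irreproducible discovery rate (IDR) measures how consistently an entry ranks in a pair of peak sets. It is given as −log10, ends at 5, and an entry of 2 or more could become a peak of the thresholded list. The conservative list held 1880 peaks with a median signal of 77.3, the pooled list 2237, the replicate 1 list 1248 and the replicate 2 list 1158. Ranked lists also hold every weaker entry, and the conservative one had 105251. The lists give no read totals, and the sequencing depth behind the signals is therefore unknown.

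Of the 9 receptor genes, 4 (44.4%) had a conservative peak, against 20.1% of all protein-coding genes. Long genes offer more room for a summit, and 8 of the 9 members are at least 10 kb long. Of those 8, 3 (37.5%) had a conservative peak, against 33.7% of the 1985 protein-coding genes of that length, so the share was near the background. With summits in the gene body only, the members were again 4 of 9, and 3 of the 8 long ones, against 6.13% of all genes and 21.8% of long genes. When each peak was assigned by its nearest coding start alone, the count was 4 of 9 against 11.2% of all genes, and 3 of 8 against 23.4% of long genes. The pooled list gave 5 members against 22.8% of all genes, and 4 of the 8 long members against 37.7% of long genes. The replicate 1 list gave 4 members (EcR, Hr3, Hr4 and Eip75B), all long, against 14.3% of all genes and 24.8% of long genes. The replicate 2 list gave 3 (Hr3, Hr4 and Eip75B), again all long, against 14.4% and 22.2%. Under stricter rules 2 members were left, Hr3 and Hr4. In the upper 50% of conservative peaks by signal, the shares were 11.9% of all genes and 19.2% of long genes, and at a −log10 IDR of at least 3 they were 12.5% and 20.5%.

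**Figure D1:**
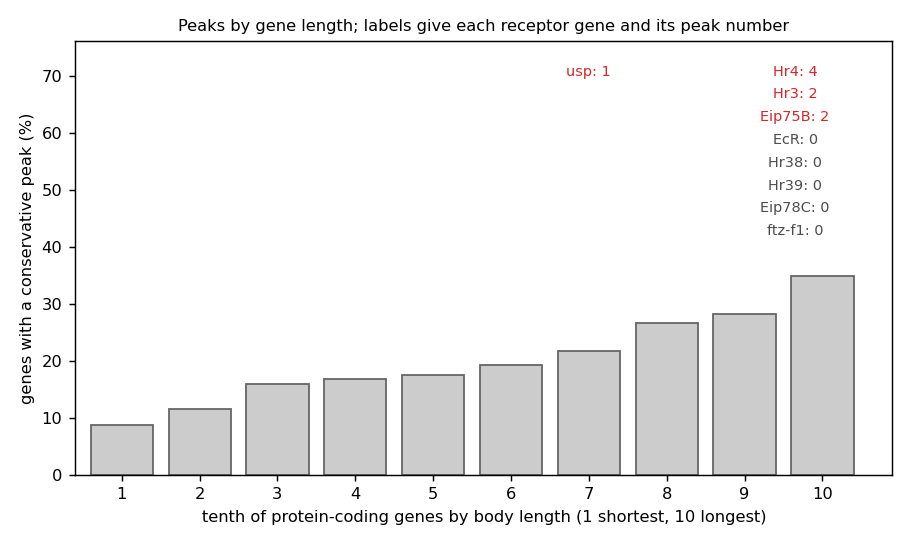
Share of protein-coding genes with a conservative castor peak (y axis, percent) in 10 equal classes of genes ordered by body length (x axis, shortest to longest), with each receptor gene and its number of conservative peaks written above its own length class. The share was 8.80% among the shortest genes and 34.8% among the longest, where 8 of the 9 members sit, and usp is in class 7 with a share of 21.6%.

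EcR, which encodes the hormone-binding receptor, covers 81.2 kb of chromosome arm 2R (6087873 to 6169087, minus strand, FBgn0000546) and has 4 distinct transcript starts. It had no conservative peak. Its most reproducible entry in the conservative ranked list had a −log10 IDR of 1.95, just under 2, and lay in an intron with the summit at 6107539. That entry had a signal of 50.5 in the conservative ranked list, and 21.9 in replicate 1 and 28.9 in replicate 2. It passed in the pooled list with a −log10 IDR of 2.25.

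The strongest EcR entry, with a signal of 64.6, lay in another intron. The nearest start of any gene, that of tRNA:Asn-GTT-1-1, was 1358 bp from its summit. The nearest EcR start, used by the transcripts EcR-RD and EcR-RE, was 5811 bp upstream of the summit. Replicate 1 had a signal of 45.4 at this entry with a −log10 IDR of 3.01, and replicate 2 had 19.6 with 0.204. The replicate summits were 146 bp apart, the widest gap among the 16 sites. It was a peak in the pooled and replicate 1 lists only, so for this entry replicate 1 alone gave a peak. No peak of any list lay within 500 bp of an EcR start.

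The partner gene usp is the shortest of the 9 at 3.51 kb (X, 2038798 to 2042311, minus strand, FBgn0003964). Its single conservative peak had a signal of 68.9 and spanned 2041299 to 2041608. The summit was 142 bp upstream of the start of usp-RA and inside the body of Actn, the alpha-actinin gene, whose transcripts share the farther start of usp. Replicate 1 had a signal of 34.3 there and replicate 2 had 34.6, nearly equal values, with summits 15 bp apart. In neither replicate's own list did it become a peak, with −log10 IDR values of 1.96 and 1.53, while the conservative and pooled lists gave 2.84 and 2.99. It was the only conservative peak of a member within 500 bp of that member's own start. A stronger peak near usp, with a signal of 317, lay 7974 bp outside the gene body at the promoter of moody and was not counted, and it is named here after its values were seen.

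Eip75B encodes a heme-binding receptor that represses Hr3 activity, and it is the longest member at 114 kb (3L, 17950953 to 18064696, minus strand, FBgn0000568) with 7 distinct starts. Of the 16 sites, 7 were at this gene, but only 2 were conservative peaks. The stronger of these, with a signal of 63.3 and a −log10 IDR of 2.70, lay in an intron 6291 bp downstream of the Eip75B-RG start, and had 39.2 in replicate 1 and 28.4 in replicate 2. The other, with a signal of 56.9 and a −log10 IDR of 2.12, lay in a coding exon 2215 bp downstream of the Eip75B-RD start, and had 23.3 in replicate 1 and 31.4 in replicate 2. Its −log10 IDR was the lowest of the 9 conservative peaks.

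The entries at 3 alternative starts of Eip75B were uneven between the replicates, and not always in the same direction. At Eip75B-RD, with the summit 33 bp downstream of the start, the signal was 17.7 in replicate 1 and 36.0 in replicate 2, and only replicate 2 and the pooled list called it. At Eip75B-RA, 247 bp downstream of the start, it was 54.0 in replicate 1 and 12.2 in replicate 2, a log2 ratio of 2.15, above the highest ratio of any conservative peak with a value in both replicates, 2.00. The pooled list called this entry with a −log10 IDR of 2.37, whereas its value in the conservative ranked list was 0.114. At Eip75B-RC, 30 bp upstream of the start, it was 39.1 in replicate 1 and 17.6 in replicate 2, and only the replicate 1 list called it. No start of Eip75B therefore had a peak that both replicates called alone.

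The remaining Eip75B sites were called in the pooled list only. An intron site 11508 bp downstream of the Eip75B-RC start had 33.9 in replicate 1 and 17.5 in replicate 2. A site just past the 3′ end of the gene had 32.8 in replicate 1 and 20.2 in replicate 2, and its window was the most GC-rich of the 16 at 62.4%.

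Hr3 encodes an early-late receptor that activates ftz-f1, and it covers 33.4 kb (2R, 10203995 to 10237348, minus strand, FBgn0000448). It held the strongest peak of any member, with a signal of 208 at 10219930 to 10220239, position 136 of the 1880 conservative peaks in order of signal. It had 99.8 in replicate 1 and 104 in replicate 2, the replicate summits were 1 bp apart, and the −log10 IDR was 5, the highest value given, in all 4 ranked lists. It lay in an intron 7872 bp downstream of the nearest start of Hr3, which is shared with CG46321. The bodies of CG46321 and CG12912 also hold this summit, so the peak cannot be given to Hr3 alone. Its window had the lowest GC content of the 16 sites, 23.8%.

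The second Hr3 peak was weaker, with a signal of 67.9, and lay 2844 bp upstream of the same shared start in an intron of the longer Hr3 transcripts, inside CG12912. Replicate 1 had 21.8 with a −log10 IDR of 0.293 and replicate 2 had 46.3 with 3.07. The conservative value was 2.15, and the peak was in the replicate 2 list but not in that of replicate 1.

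Hr4, an early-late receptor gene that limits the response to the hormone, covers 66.0 kb (X, 1941940 to 2007956, plus strand, FBgn0264562) and had 4 conservative peaks. Of the 1985 genes of at least 10 kb, 22 (1.11%) had 4 or more. With summits in the gene body only, Hr4 had 3, and 42 of those genes (2.12%) had 3 or more. Hr4 is longer than 98.6% of protein-coding genes and was picked as the member with the most peaks. Genes of at least 10 kb are therefore not a set of like length, and these shares cannot mark Hr4 as unusual. The strongest Hr4 peak, with a signal of 112 at 1951789 to 1952098, lay in an intron 10004 bp downstream of the first start, and had 53.0 in replicate 1 and 60.6 in replicate 2. The next, with 98.4, lay 5805 bp downstream, and had 45.3 in replicate 1 and 46.9 in replicate 2. Both were peaks in all 4 lists, with −log10 IDR values of 4.14 and 3.54 in the conservative ranked list. The nearest start of any gene to the strongest was that of the pseudogene CR46447, 2536 bp away.

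The peak 21948 bp downstream, at the window with 3 copies of GAGAG, had a signal of 75.7, with 31.3 in replicate 1 and 44.4 in replicate 2, and was not in the replicate 1 list. The last, with 57.4, had 24.3 in replicate 1 and 31.3 in replicate 2, and neither replicate called it alone. It lay 1702 bp upstream of Hr4, within the 2 kb allowed, but only 69 bp upstream of the start of CG3587, so it is a promoter peak of that neighbour. Hr4 thus had 3 peaks in its body, all in introns after the first start, and none within 500 bp of either start.

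**Figure D2:**
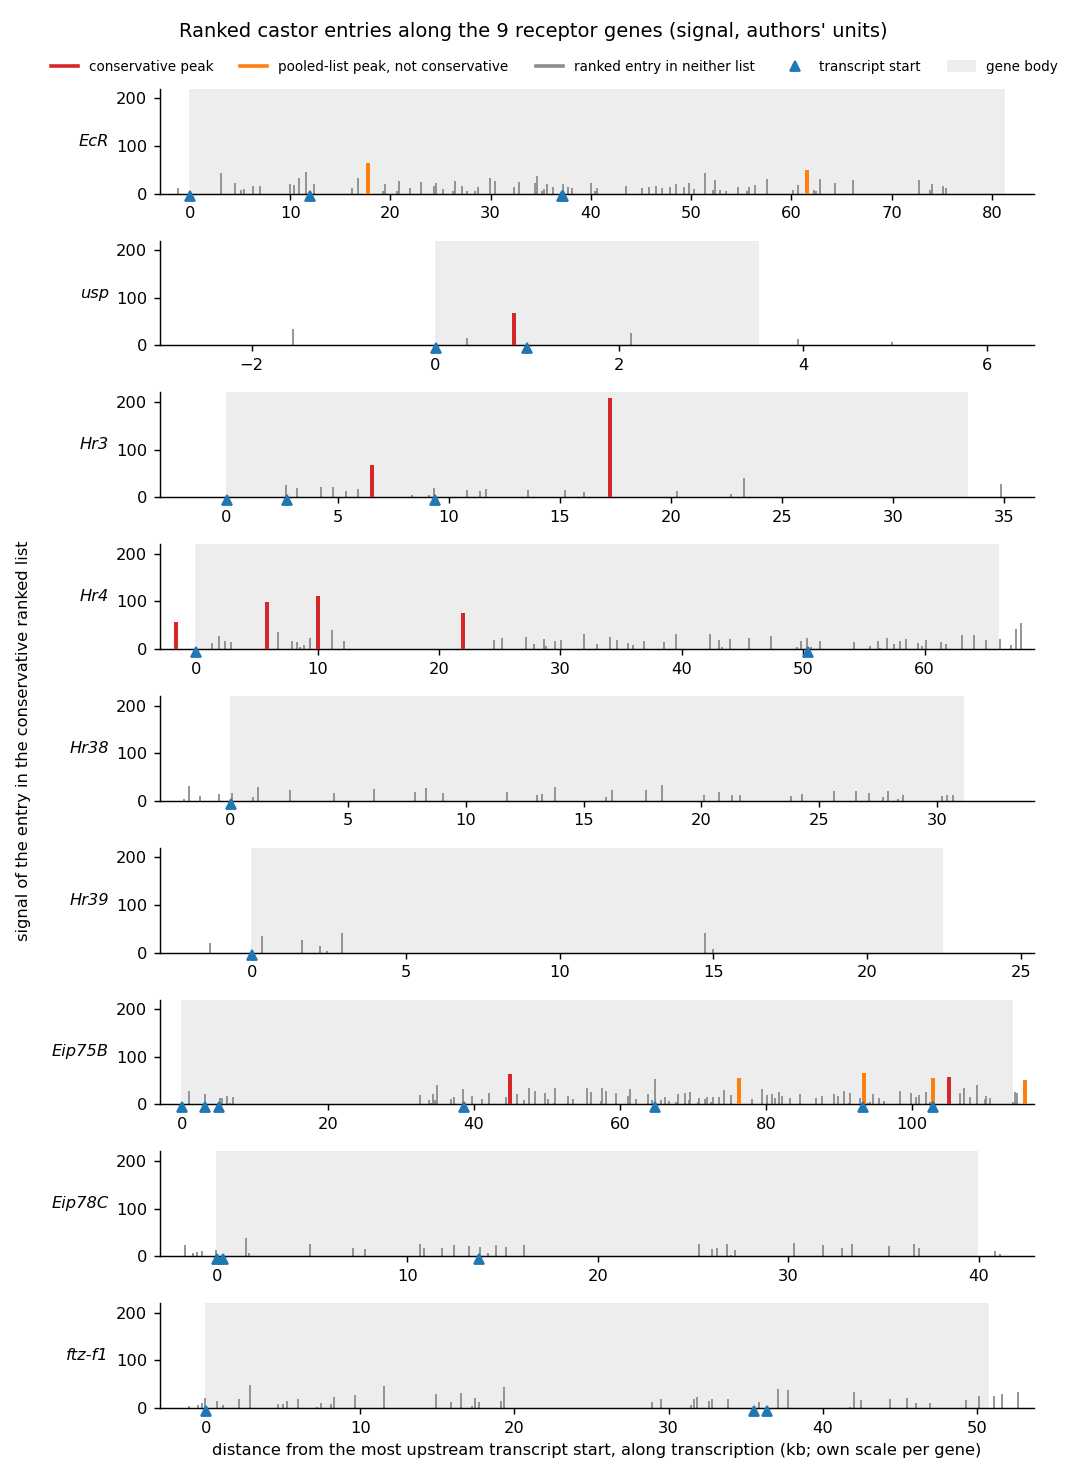
Entries of the conservative ranked list along each of the 9 genes, with the signal in the authors' units on the y axis and the distance from the most upstream transcript start on the x axis (kb, with a scale of its own for each gene). Red lines are conservative peaks, orange lines are peaks of the pooled list that are not conservative, grey lines are entries in neither list and blue triangles are transcript starts. The Hr3 peak of 208 stands far above the rest, 3 of the 4 Hr4 peaks follow its first start, and Hr38, Hr39, Eip78C and ftz-f1 have grey lines only.

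The 4 genes without a peak in any list still had ranked entries. ftz-f1, whose product is a competence factor and in early embryos the partner of the segmentation factor ftz, came closest (3L, 18750607 to 18801309, minus strand, FBgn0001078). Its strongest entry, in a coding exon 2864 bp downstream of the first start, had a signal of 48.4 and a −log10 IDR of 1.87, with 25.9 in replicate 1 and 22.8 in replicate 2. In the pooled ranked list the highest value at ftz-f1 was 1.96.

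Hr39, the gene of a receptor related to that of ftz-f1 (2L, 21237250 to 21259675, plus strand, FBgn0261239), reached 41.7 in an intron, with 23.4 in replicate 1 and no overlapping entry in replicate 2. The nearest coding start to that entry was that of l(2)k14505, 9192 bp away. Eip78C, which encodes a receptor related to that of Eip75B (3L, 21226609 to 21266503, plus strand, FBgn0004865), reached 39.1 in a coding exon 1187 bp downstream of a start of its own, with 25.4 in replicate 1 and 13.7 in replicate 2. Hr38, the gene of the alternative partner of usp (2L, 20683462 to 20714588, minus strand, FBgn0014859), was lowest at 32.1 in an intron, with 7.68 in replicate 1 and 22.8 in replicate 2. The nearest coding start to that entry was that of CG2617. The highest −log10 IDR in the conservative ranked list was 1.40 at Hr39, 1.13 at Eip78C and 0.758 at Hr38. At Eip78C and Hr38 those were weaker entries, with signals of 27.0 and 29.1. The strongest entries described above had 0.444 at Eip78C and 0.096 at Hr38.

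**Figure D3:**
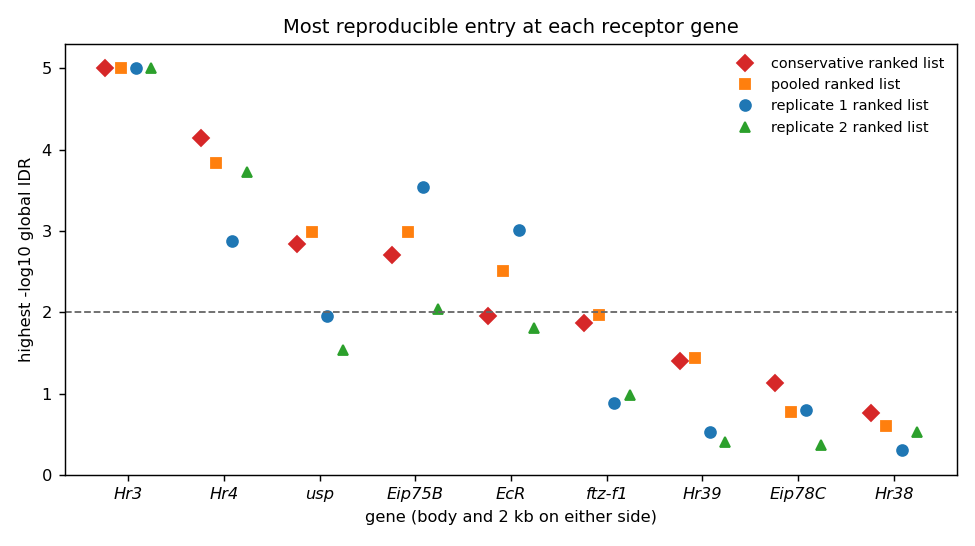
Highest −log10 IDR of any entry at each gene (y axis) in the conservative, pooled, replicate 1 and replicate 2 ranked lists, for the 9 genes in order of the conservative value (x axis), with a dashed line at 2. Hr3 is at 5 in all 4 lists and Hr4 is above 2 in all 4, Eip75B is above 2 in all 4 through different entries, EcR and usp are above it in some, and ftz-f1, Hr39, Eip78C and Hr38 are below it in every list.

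The replicates were nearly equal in signal at some conservative sites and differed at others. At the 9 conservative peaks of the members the median log2 ratio (replicate 1 over replicate 2) was −0.19 with an SD of 0.43, and replicate 2 was higher at 8 of 9. Over the 1858 conservative peaks with an overlapping entry in both replicates the median was 0.02 and the SD 0.51, with replicate 2 higher at 910. Because the scaling of the replicates to each other is unknown, a median away from 0 cannot be read as a difference in binding. Conservative peaks were selected for reproducibility. The log2 ratios ran from −1.08 to 0.47 at the 9 conservative sites, and from −1.02 to 2.15 at the 7 sites that were not conservative.

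**Figure D4:**
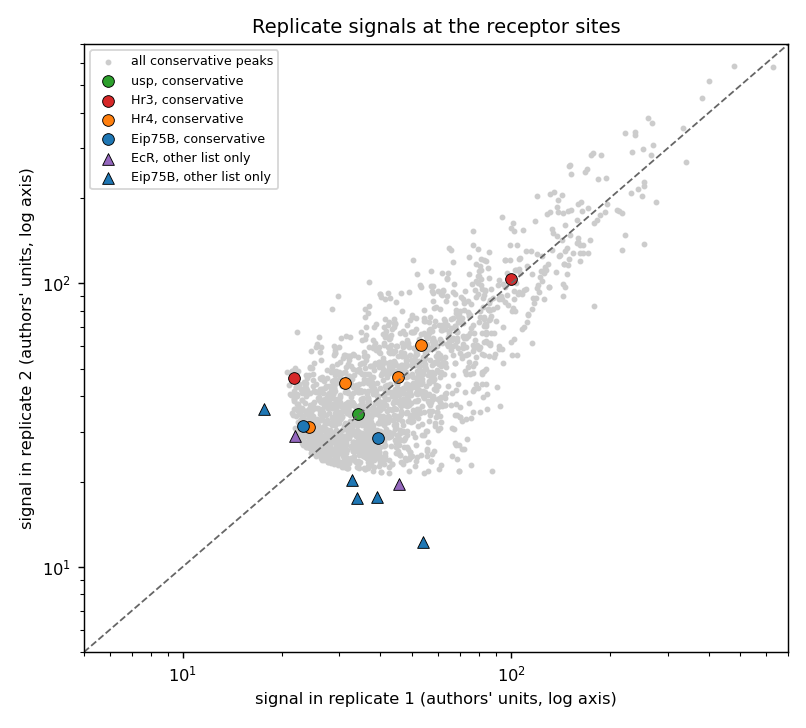
Signal in replicate 1 (x axis) against replicate 2 (y axis), both in the authors' units on log axes, for the 16 sites of the members over all conservative peaks (grey), with equal signal on the dashed line. Circles are conservative peaks and triangles are sites of other lists only, and the triangle farthest from the line is the Eip75B-RA start, at 54.0 in replicate 1 and 12.2 in replicate 2.

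The conservative summits at the members lay mostly in introns. Of the 9, 6 were in introns, 2 within 500 bp of a transcript start (that of usp and that of CG3587) and 1 in a coding exon. Of all conservative summits, 62.1% were within 500 bp of a start and 26.6% in introns. Among the 906 conservative summits in or near a gene of at least 10 kb, 48.7% were within 500 bp of a start and 44.2% in introns, which is the closer comparison for these long genes. The members have 26 distinct starts, of which 1 (3.85%) had a conservative summit within 500 bp, against 9.42% of the 19275 distinct coding starts. Entries of the conservative ranked list were within 500 bp of 21 member starts (80.8%), against 74.5% of all coding starts. The members held 403 such ranked entries in all, 0.843 per kb, against 0.763 per kb over the arms, and the values ran from 0.303 at Hr39 to 1.05 at Hr38. This order depended on the list: Hr39 had 1.06 per kb in the pooled ranked list, where Hr3 was lowest at 0.803. The comparison with the arms also depended on it, with 0.575 per kb at the members against 0.425 over the arms in replicate 1, and 0.609 against 0.645 in replicate 2.

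Other genes of the ecdysone pathway were counted by the same rule from lists of 61 genes, and 16 of them (26.2%) had a conservative peak, against 20.1% of all protein-coding genes. Of the 26 that are at least 10 kb long, 9 (34.6%) had one, against 33.7% of all genes of that length, so the share was near the background. Of 12 other nuclear receptor genes, 3 did: Hr96, a xenobiotic-response receptor gene, with a signal of 145, ERR, the estrogen-related receptor gene, with 126, and Hr51, a receptor gene of neurons, with 105. The summits counted at Hr96 and ERR lay 59 bp upstream of the start of EMC6 and 1 bp downstream of that of Atg18a, and the nearest start to that of Hr51 was that of unc-5, so these peaks were at neighbouring genes' starts or between genes.

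Of 19 ecdysone-response genes outside the receptor family, 11 of them at least 10 kb long, 7 had a conservative peak. The shares were 20.1% of all protein-coding genes and 33.7% of those of at least 10 kb. Sox14, which encodes a factor that drives the pruning of neurons at metamorphosis, had the strongest at 469, 241 bp upstream of its own start, with 178 in replicate 1 and 288 in replicate 2. This exceeded every peak of the 9 receptor genes. Mical, a Sox14 target in pruning, was counted through a peak of 128 that lay 55 bp upstream of the start of CG3909. Eip63F-1 had 119, Eip63E had 91.7, ImpL2, which encodes a secreted antagonist of insulin-like peptides, had 89.5, and crol, a zinc-finger gene, had 64.0. The seventh was br, the Broad-Complex early gene, with 50.5 at a summit that also lies in the body of Mur2B, 740 bp upstream of the Mur2B start, the nearest coding start. Both are named after their values were seen.

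Of 17 genes of ecdysteroid synthesis, uptake and breakdown, 4 of them at least 10 kb long, 0 had a conservative peak. The pooled list had peaks at 2, the replicate 1 list at 0 and the replicate 2 list at 1. Of 13 genes of cofactors of EcR and usp, 7 of them at least 10 kb long, 6 had a conservative peak. Shares of all protein-coding genes were 20.1% (conservative), 22.8% (pooled), 14.3% (replicate 1) and 14.4% (replicate 2). Of all genes of at least 10 kb, 33.7% had a conservative peak. The peak counted at alien, which encodes a corepressor, had a signal of 263 and lay 112 bp upstream of the start of CG18661. The peak at nej, the gene of the acetyltransferase CBP, had 130, and the stronger of a pair at Hsp83, the gene of the chaperone that helps EcR bind DNA, had 124. An intron peak at tai, the gene of an EcR coactivator, had 88.4, and one at Smr, the gene of an EcR corepressor, had 76.4. The peak counted at trr, which encodes a histone methyltransferase recruited by EcR, had 71.7 and lay 32 bp upstream of the start of CG14818.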

How the data were processed

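Castor binding was measured in whole cas-GFP embryos, 2 biological replicates numbered by the labels. Thresholded and ranked peak lists on dm6 were used as deposited, 4 of each kind: conservative, pooled, replicate 1 and replicate 2. Per the deposited README texts, each came from the alignments of 1 replicate or of both; aligner, peak caller and settings: not given in the sources used here. Each signal value is the authors' own value for an entry, and the −log10 IDR of ranked entries was given by the authors. Input libraries were not analysed here.

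Summits were compared with Ensembl release 115 (BDGP6.54) without transposable-element genes. Entries of different lists were matched by an overlap of at least 1 bp. A site was placed at a promoter within 500 bp of a transcript start. DNA words were searched in RefSeq Release 6, from 50 bases before to 50 after the summit. Assignment of peaks to genes and starts was tested on simulated peaks, each placed exactly on a gene's own start. Their recovery checks the code and says nothing on whether the rule suits peaks in introns. With 1 group, no test was made and no p-value was computed.

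The members, lists and words were chosen with earlier results of these data known. Named genes are the 9 members, the nearest coding start and bodies at each of their conservative peaks, the nearest start of the strongest ranked entry of other members, and, in each other list, genes with a conservative peak, up to 6 in order of signal. The alternatives were the other lists, margins of 0 and 10 kb, the nearest start, the upper 50% of peaks by signal, no signal under 10, a −log10 IDR of at least 3, an overlap of 50%, promoter windows of 200 and 1000 bp and word windows of 25 and 100 bases on either side. Python 3.11.15, numpy 2.4.6, pandas 2.3.3 and matplotlib 3.10.9 were used.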

Additional observations from a re-analysis of the deposited data

How the results depend on the processing

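The 4 members with a conservative peak stayed the same genes with margins of 0 and 10 kb. In the upper 50% of peaks by signal, and likewise at a −log10 IDR of at least 3, 2 members were left, Hr3 and Hr4, with 3 peaks in all, while the share of all genes fell to 11.9% and 12.5%, against 20.1% in the full list. The pooled list gave 15 peaks at the members in place of 9, and 6 of the 15 were at Eip75B, which had 2 conservative ones. Per Mb the members had 31.4 pooled and 18.8 conservative peaks, against 16.3 and 13.7 over the arms. With 1 replicate left out, the members with a peak ranged from 3 to 4, their peaks from 6 to 7, their ranked entries from 0.575 per kb (replicate 1, above the 0.425 of the arms) to 0.609 (replicate 2, below their 0.645), and the other pathway genes with a peak from 13 to 14. The members had 14.6 peaks per Mb in the replicate 1 list and 12.6 in the replicate 2 list, against 9.11 and 8.35 over the arms. Of all protein-coding genes, 14.3% had a peak in the replicate 1 list and 14.4% in the replicate 2 list. With 100 bases on either side of the summit, TATCGA was at 1 conservative site of the members, CGATAG at 1 and GAGAG at 2. Among all conservative summits the shares at that width were 17.35% for TATCGA, 13.04% for CGATAG and 24.69% for GAGAG. With 25 bases GAGAG was at 0 conservative sites of the members, against 5.27% of all conservative summits. The other pathway genes with a conservative peak were 8 with a margin of 0 kb and 32 with 10 kb, as the share of all genes was 6.13% and 40.8%. The promoter count of 2 was the same with windows of 200 and 1000 bp, and the median replicate ratio was the same with an overlap of 50%. No paired analysis was possible because there is 1 group. The causes of these shifts were not tested, and read totals are unknown.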
